A study of Mus musculus with 778 samples.

Results

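Mouse oocytes at both ends of the growth phase were compared by single-cell RNA-seq, 51 small growing oocytes (GO1) and 56 fully-grown oocytes (FGO), out of the 223 oocytes of the count table. Members were taken by the stage that opens the name of each cell, and all of them were kept. GO1 oocytes were 30 to 45 μm in diameter and FGO oocytes over 70 μm. Both came from the ovaries of wild type ICR female mice aged 3 to 4 weeks, and no cell can be tied to an age within that range. The table also held 26 oocytes of stage GO2 (50 to 55 μm) and 44 of GO3 (60 to 65 μm), from mice of the same age, and 46 non-growing oocytes (NGO, under 20 μm) from mice 3 to 4 days old. Transcripts were counted by UMI (unique molecular identifier), a random tag put on a molecule before amplification so that its copies count once. The cells were spread over 4 libraries, but the name of a cell gives neither its library nor its animal. Each stage was therefore 1 pooled sample, library and stage cannot be told apart, and no p-value or standard error between the stages was computed.

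An oocyte grows while arrested in prophase of the first meiotic division, enclosed by granulosa cells that feed it through gap junctions. During growth it builds the zona pellucida, secretes growth factors to the granulosa cells, lays down DNA methylation and stores mRNA and protein for the embryo. When it is fully grown it becomes able to resume meiosis, and transcription stops until the embryonic genome is activated. Levels were expressed as UMIs per 1000000 UMIs of the cell (CPM), so a value is the share of a gene in the transcripts of 1 oocyte and not its number of molecules, and more molecules of a gene cannot be told apart from fewer of the others.

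The cells differed in depth. GO1 cells held 22279 to 3898137 UMIs (median 110146) and FGO cells 61555 to 3828823 (median 792312.5). Of the GO1 UMIs, 80.4% lay in the 10 deepest cells, against 49.7% in FGO, so each cell was scaled by itself and every cell weighed the same. A total between 100000 and 1000000 UMIs, called similar below, was reached by 21 GO1 cells (median 256156) and 32 FGO cells (median 383434.5). After each cell was thinned to 20000 UMIs, a GO1 cell had a median of 4109 genes with a UMI (quartiles 3921.5 and 4367.5) and an FGO cell 4492.5 (quartiles 4320.25 and 4783.25). Between cells of similar total the medians were 4261 and 4426 genes, and between cells above 1000000 UMIs 4783.5 and 4842. Without thinning they were 6697 and 10398.5.

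**Figure D1:**
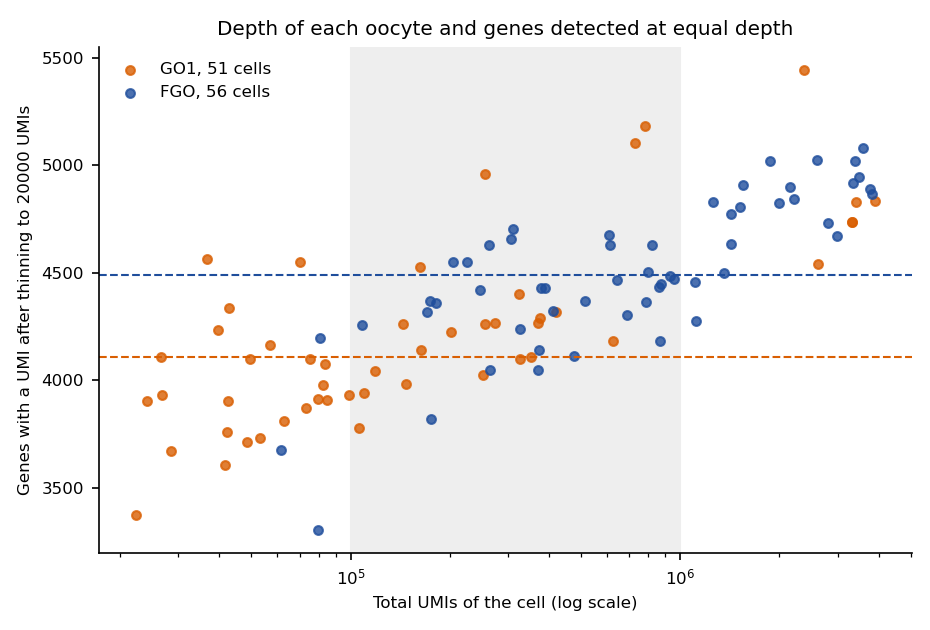
Each point is an oocyte, with its total UMIs on the x axis (log scale) and the number of genes with a UMI after thinning to 20000 UMIs on the y axis. Dashed lines are the medians of GO1 (4109) and FGO (4492.5), and the grey band marks the cells of similar total. GO1 cells lie mostly on the left of the plot and FGO cells on the right, and genes detected at equal depth still climb with the total.

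The labels were checked against marker genes and against the profile of each cell. Of 8 oocyte identity markers, all had at least 10 CPM in one stage or both, and their summed level was 5216 CPM or more in every GO1 cell and 5114 or more in every FGO cell. Among 18 granulosa cell markers, 3 reached 10 CPM and 8 stayed below 1 CPM in both stages, among them *Foxl2*, *Amh*, *Fst* and *Nr5a1*, which define granulosa cells. Of the 3, *Cyp19a1* (16.95 and 1.34 CPM) and the nuclear receptor gene *Nr5a2* (16.4 and 6.59 CPM) were higher in GO1 and *Serpine2* higher in FGO by the rule used below. The summed granulosa list had 223 CPM in GO1 and 419 CPM in FGO, of which *Serpine2*, a protease inhibitor gene, made up 165 and 395 CPM. The 12 stromal and theca markers summed to 1.93 and 7.06 CPM, with *Acta2* the most abundant, and the 13 blood and endothelial markers to 18.4 and 16.4 CPM, nearly all of it *Pecam1*. Hemoglobin genes (*Hbb-b1*, *Hba-a1*) and *Ptprc* were at 0, as were 9 of these 13 in all. By rank correlation (Spearman) over 7812 genes, none of them a replicate, 47 of 51 GO1 cells and 55 of 56 FGO cells were nearer to the mean of their own stage than to that of the other. The 4 GO1 exceptions were the 4 deepest GO1 cells, with 3320883 to 3898137 UMIs, and the FGO exception was the shallowest FGO cell. Of the 6 GO1 cells above 1000000 UMIs, 2 were nearer to their own stage, and all 21 GO1 and 32 FGO cells of similar total were.

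A gene was counted as higher in a stage when its mean CPM over cells was at least 2-fold that of the other stage and at least 10. Of 7812 genes with 10 CPM in either stage, 1327 were higher in FGO (17%) and 1222 were higher in GO1 (15.6%). At 4-fold, 205 and 303 genes were past the limit, and at 8-fold 40 and 91. The genes higher in FGO held 5.45% of the UMIs of GO1 and 14% of those of FGO, and the genes higher in GO1 held 16.9% and 6.07%. In the cells of similar total the counts were 1392 and 1332, of which 1090 and 987 were also past the rule over all cells, and none was past it there in the opposite direction. The split depended on how cells were averaged: genes higher in FGO made up 52.1% of the genes past the rule by the mean, 66.98% by the mean without the extreme cells and 74.1% by the median over cells, which also moved the median of all genes from a log2 ratio of 0.09 to 0.35. In summed UMIs, which the deep cells dominate, the counts dropped to 628 and 711. In the 6 GO1 and 21 FGO cells above 1000000 UMIs they were 528 and 583, with 376 and 426 shared. In those cells 1 gene was past the rule in the direction opposite to that over all cells. A stricter set passed the rule in 4 settings at once, namely the mean over cells, the summed UMIs, the cells of similar total and the thinned cells. It held 411 genes higher in FGO (5.26%) and 531 higher in GO1 (6.80%), and in the cells above 1000000 UMIs all of them kept their direction, 294 and 359 of them past the rule. These deep cells weigh most in the summed UMIs by which the set was chosen, so the kept direction was largely set in advance. Gene models without a name of their own made up 19 of the 411 and 50 of the 531.

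**Figure D2:**
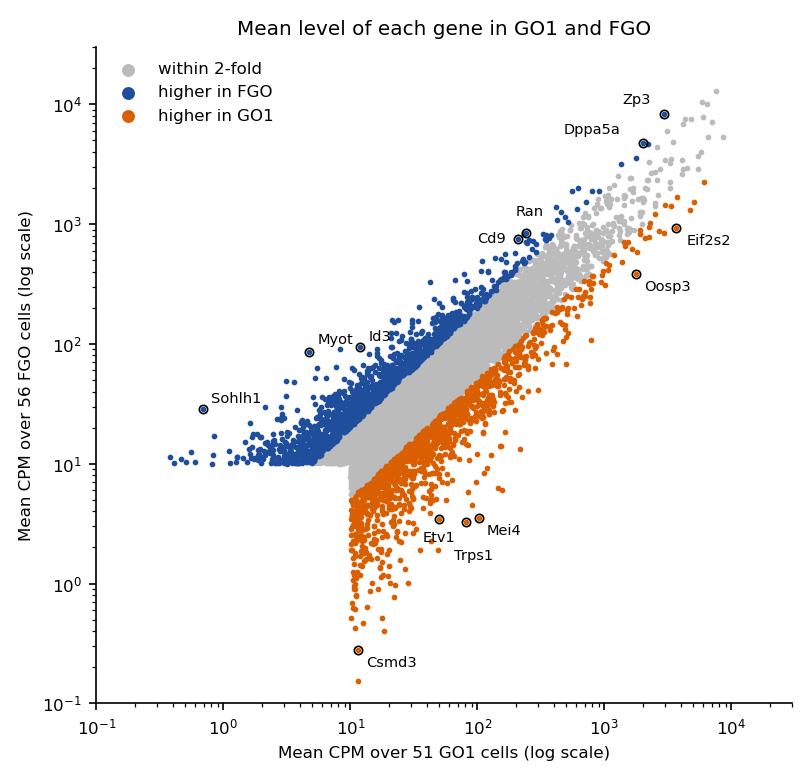
Each point is a gene, with its mean CPM over the GO1 cells on the x axis and over the FGO cells on the y axis, both on log scales. Blue points are the 1327 genes higher in FGO, orange points the 1222 higher in GO1, and grey points lie within 2-fold. Circles mark genes labelled in the plot, of which *Sohlh1* lies farthest to the left and *Csmd3* lowest.

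Genes of the stricter set were ranked by the smallest of their 4 ratios, and the first toward FGO was *Sohlh1* (NCBIM37 chr2:25698515-25702768, minus strand), a helix-loop-helix factor of early follicle formation. A UMI of it was found in 5 of 51 GO1 cells and 48 of 56 FGO cells, with a lowest, median and highest level of 0, 0 and 20.6 CPM in GO1 and 0, 12.5 and 243 CPM in FGO. The means were 0.693 and 28.7 CPM, and the summed UMIs differed 57.2-fold (95% counting interval 30.05 to 125.4, which covers counting error only). The FGO cells were uneven, and 17 of them lay above every GO1 cell. *Myot*, which encodes a titin-binding muscle protein, had 0, 0 and 44.9 CPM in GO1 and 0, 62.4 and 317 CPM in FGO, and 33 FGO cells lay above every GO1 cell. *Nsun7* (chr5:66651151-66689255, plus strand), a member of the RNA methyltransferase family, went from a mean of 0.843 to 16.9 CPM, and *Bbx*, an HMG-box factor, from 3.11 to 49.5 CPM with a UMI in all 56 FGO cells. *Xbp1* (chr11:5420662-5425896, plus strand), the transcription factor of the unfolded protein response, had 2.11 CPM in GO1 and 29.5 in FGO. *Eif4ebp1*, a repressor of cap-dependent translation, had 5.24 and 51.6 CPM, and *Id3* (chr4:135699412-135701670, plus strand), an inhibitor of helix-loop-helix factors, 11.9 and 93.4 CPM. For *Id3*, 39 FGO cells lay above the highest GO1 cell. The highest GO1 levels of *Sohlh1* and *Myot* were in shallow cells of 48467 and 22279 UMIs, where a lone UMI gives a high CPM. Such counts of FGO cells are therefore not compared between genes. The others of the 12 with the largest ratios were *Maged1* (5.41 and 62.8 CPM), *Gipc1* (3.10 and 36.7), the kinase gene *Pim3* (2.62 and 23.7), the ESCRT-III gene *Chmp6* (0.462 and 10.9) and *Mob3c* (1.74 and 11.1).

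Abundant transcripts gained the most CPM. *Dppa5a*, a KH-domain gene of germ cells and pluripotent cells, had 539, 1804 and 5589 CPM in GO1 and 1621, 4458 and 9012 CPM in FGO (lowest, median and highest), and its mean went from 1997 to 4775 CPM. *Pigp*, a gene of GPI anchor synthesis, went from 1361 to 3159.5 CPM, the nuclear long noncoding RNA *Malat1* from 552 to 1870.3 and the peptidyl-prolyl isomerase *Ppia* from 606 to 1338. *Ppia* and *Ran* have near-identical pseudogenes, and how the counting treated reads shared with them is not given in the sources used here. *Ran* (chr5:129525944-129530198, plus strand), the GTPase of nuclear transport and spindle assembly, had 0, 227 and 542 CPM in GO1 and 493, 731 and 2269 CPM in FGO. *Cd9* (chr6:125410284-125444809, minus strand), the egg tetraspanin needed for sperm fusion, had 0, 199 and 534 CPM and 439.8, 739 and 959.6 CPM. For these 2 genes the groups hardly overlapped, 54 of 56 FGO cells lying above every GO1 cell, and *Cd9* in cells of similar total had means of 255 and 750.0 CPM. These levels moved with depth as well. In cells above 1000000 UMIs the GO1 and FGO means were 1169 and 3693 CPM for *Dppa5a* and 166 and 791 CPM for *Malat1*, below those of all cells in both stages. The ratio of means fell from 3.47 over all cells to 2.10 in those cells for *Ran* and from 3.58 to 2.36 for *Cd9*, and was 3.39 and 4.77 for *Malat1*.

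Toward GO1 the first gene of the stricter set, ranked by the smallest of its 4 ratios, was *Mei4* (chr9:81757277-82099614, plus strand), a factor required for meiotic double-strand breaks. It had a lowest, median and highest level of 0, 69.3 and 376 CPM in GO1 and 0, 1.95 and 24.5 CPM in FGO, with means of 102.1 and 3.53 CPM. Its level was 21.1-fold higher in GO1 in the summed UMIs (95% counting interval 18.4 to 24.3), and 39 GO1 cells lay above every FGO cell, while 10 GO1 cells had no UMI of it. Most of these 10 had neighbouring cell numbers, between GO1_sc42 and GO1_sc51, and GO1_sc48 among them held 162906 UMIs. What the cell numbers follow is not given. Among transcription factor genes, *Trps1* (chr15:50486307-50721587, minus strand) had 0, 54.6 and 378 CPM in GO1 and 0, 1.58 and 37.7 CPM in FGO, and *Etv1* (chr12:39505967-39594802, plus strand) 0, 47.6 and 175 CPM and 0, 2.81 and 15.3 CPM. For *Etv1*, 43 of 51 GO1 cells lay above the highest FGO cell, and for *Trps1* 38. Over all pairs of a GO1 and an FGO cell, with tied pairs split evenly between the stages, the share with FGO higher was 9.66% for *Etv1* and 8.25% for *Trps1*. Ties at 0 were part of these shares. *Tfap2b*, another transcription factor gene, was uneven, with a median of 3.91 CPM and a highest cell of 290.4 CPM in GO1 against at most 6.33 CPM in FGO. *Nmu*, which encodes the neuropeptide neuromedin U, had means of 35.2 and 1.90 CPM, *Etl4* 22.02 and 0.774, the glucuronosyltransferase gene *Ugt2b38* 22.3 and 0.972, and *Csmd3* 11.5 and 0.279. *Ugt2b38* and *Sgo2b* (12.6 and 0.471 CPM), which is related to the centromere protector shugoshin 2, belong to families of similar sequence and are less certain. The kinase gene *Stk39* (10.96 and 0.609 CPM), the opsin gene *Rrh* (16.6 and 0.905) and *Pnma5* (14.3 and 0.869) completed the 12. In cells above 1000000 UMIs each of these 12 was still past 2-fold in the same direction, as were the 12 toward FGO, of which *Nsun7* was under 10 CPM there. The direction was largely set in advance, since these deep cells weigh most in the summed UMIs by which the genes were chosen. Many of the ratios were smaller in the deep cells, by over 1.5 times for 6 of the 12 toward FGO and 5 of the 12 toward GO1, and 1 toward GO1 (*Nmu*) was larger by as much. The log2 ratio went from 4.56 to 2.41 for *Chmp6*, from 3.99 to 2.11 for *Bbx*, from 3.56 to 2.45 for *Gipc1*, from -5.10 to -3.86 for *Tfap2b* and from -4.86 to -3.99 for *Mei4*.

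**Figure D3:**
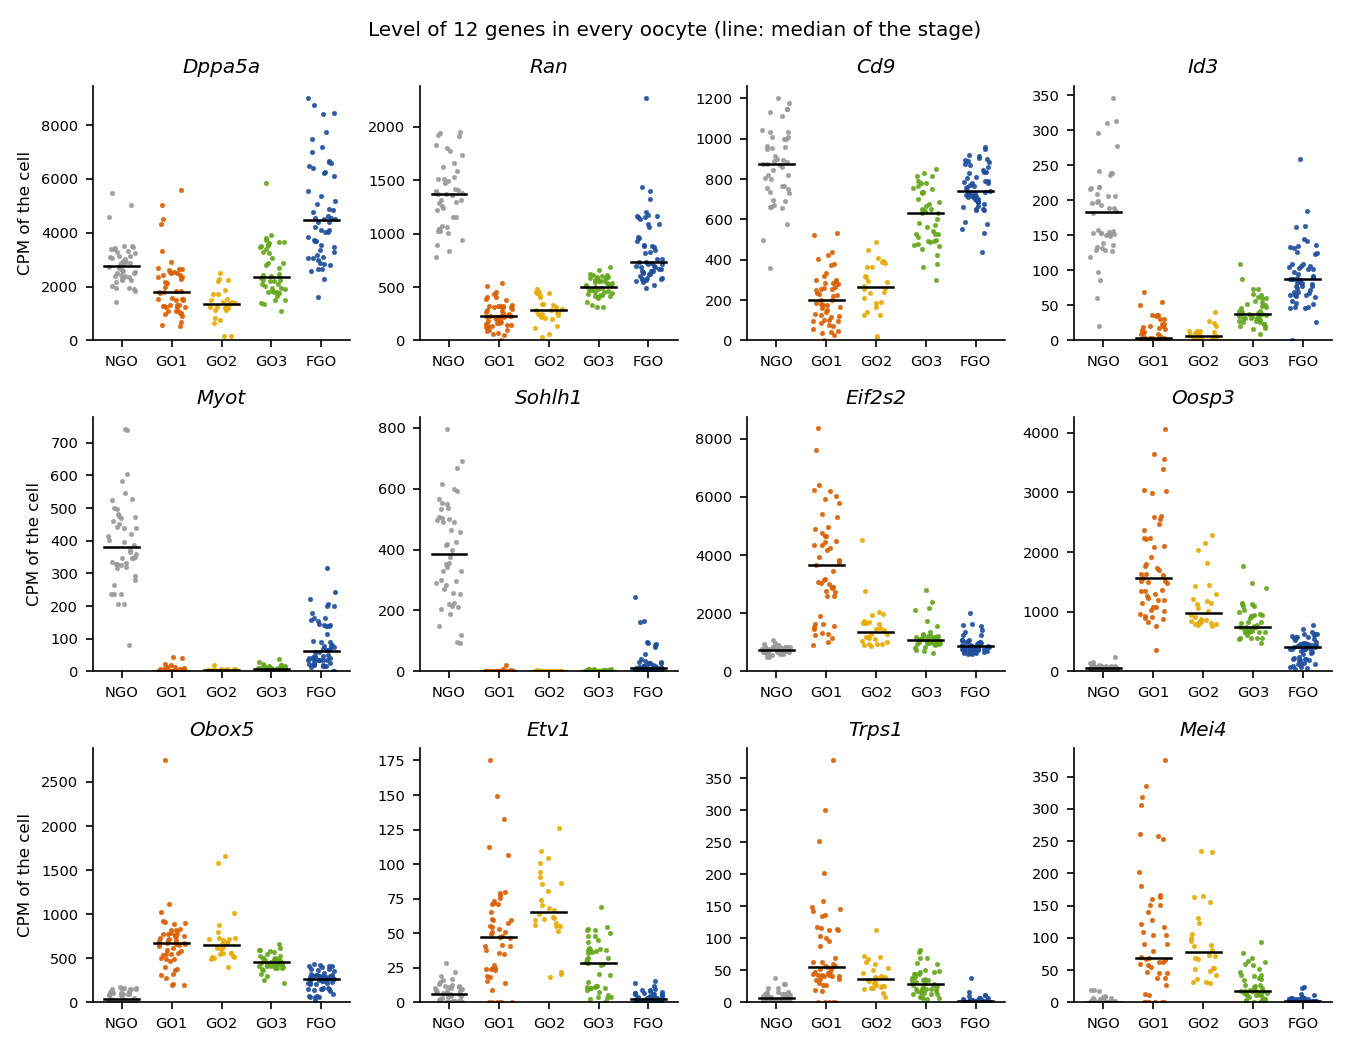
Each point is an oocyte and each panel a gene, with CPM on the y axis and the 5 stages on the x axis. Black lines are medians. *Ran* and *Cd9* climb from GO1 to FGO with little overlap of these stages, *Sohlh1* and *Myot* are spread widely among FGO cells, and *Etv1*, *Trps1* and *Mei4* are near 0 in most FGO cells.

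Most of the largest losses in CPM moved with depth. *Eif2s2* (chr2:154697146-154718671, minus strand), the beta subunit of translation initiation factor eIF2, had 900.1, 3669 and 8349 CPM in GO1 and 584, 859 and 1998 CPM in FGO (lowest, median and highest). *Akap5* (chr12:77425878-77435140, plus strand), an anchoring protein of protein kinase A, had 417, 2530.4 and 8663 CPM and 137.1, 688 and 3379 CPM. In GO1 cells under 100000 UMIs the mean of *Eif2s2* was 4876 CPM, in those of similar total 2993 and in those above 1000000 1183, against 953 and 808 CPM in FGO cells of similar total and above 1000000. For *Akap5* the corresponding GO1 means were 4312, 2141 and 489.9 CPM and the FGO means 985 and 403 CPM. *Brd8*, a bromodomain gene, had GO1 means of 1126, 579 and 155.9 CPM. In the deepest cells the log2 ratio of *Eif2s2* was -0.55, that of *Akap5* -0.28 and that of *Brd8* -0.81, against -1.98, -1.82 and -2.86 over all cells. *Obox5*, an oocyte homeobox gene, and *Oosp3*, an oocyte-secreted protein gene, were still past 2-fold there, with log2 ratios of -1.08 and -1.02 against -1.44 and -2.23 over all cells. The GO1 mean of *Obox5* did not fall with depth, at 665 CPM under 100000 UMIs, 684 in similar totals and 722 above 1000000. *Rock1*, a kinase of the actomyosin cytoskeleton, had means of 655 and 209 CPM over all cells. In cells above 1000000 UMIs its GO1 mean of 339 CPM rested on 1 cell at 1126 CPM, and the medians were 189.7 and 152.3 CPM.

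**Figure D4:**
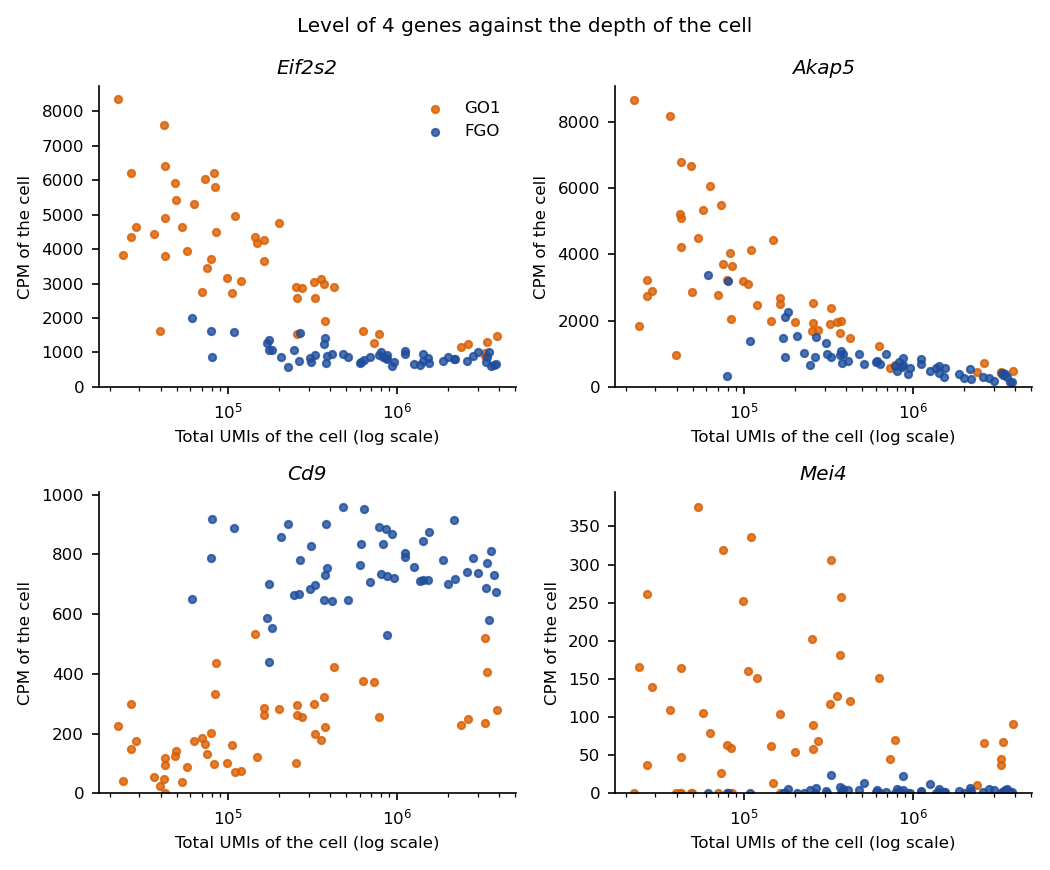
Each point is an oocyte, with its total UMIs on the x axis (log scale) and its CPM on the y axis, for 4 genes. *Eif2s2* and *Akap5* are highest in shallow GO1 cells. Above 1000000 UMIs *Akap5* overlaps between the stages, and *Eif2s2* comes nearer, with medians of 1208.8 CPM in GO1 and 800.3 CPM in FGO. *Cd9* is higher in FGO than in GO1 at low and at high totals, and *Mei4* stays at or below 24.5 CPM in every FGO cell while GO1 cells spread from 0 upward.

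The gene lists by role were read beside the 17% and 15.6% of all genes tested, and a share near these says nothing particular of a list. Of all genes tested, 67.4% were past neither limit and 53.2% had a ratio above 1. Of the 63 genes of the role lists past the rule, 28 were also past it in the same direction in cells above 1000000 UMIs, and 3 had a ratio of the opposite sign there (*Parn*, *Plk1* and *Kmt2d*). Of the other list members, 41 changed sign in those cells and 12 in cells of similar total, so the side of a ratio within 2-fold is given as a value only. The list of zona pellucida and secreted protein genes was past the limit in both directions. Of 10 members, 2 were higher in FGO, 5 were higher in GO1 and 3 were past neither limit. *Zp3*, the sperm-binding zona protein, had 1397, 2814 and 5829 CPM in GO1 and 2599, 7512 and 14731 CPM in FGO (lowest, median and highest), and *Zp1*, the zona cross-linker, had means of 619 and 1997 CPM. *Zp2* had 707 and 1234 CPM and *Gdf9*, a growth factor for granulosa cells, 3497 and 4876 CPM, both under 2-fold. Its paralog *Bmp15* had 1069 CPM in GO1 and 416 in FGO, and *Bmp6* 60.1 and 19.1 CPM. The 3 oocyte-secreted protein genes were all higher in GO1, *Oosp1* with 798 and 371 CPM, *Oosp2* with 1642 and 621, and *Oosp3* with 1778 and 380.2. *Oosp3* had 49 of 51 GO1 cells above the highest FGO cell. *Fgf8* was past neither limit, with a log2 ratio of 0.89. *Bmp6* and *Oosp3* passed in all 4 settings, and neither gene higher in FGO did. In cells above 1000000 UMIs, *Zp3*, *Zp1*, *Bmp15*, *Oosp1* and *Oosp2* were within 2-fold, for example *Bmp15* at 763 and 589 CPM.

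Of 19 oocyte transcription factors, 15 reached 10 CPM, 5 were higher in FGO and 1 was higher in GO1. *Figla*, which drives the zona genes, had 0, 72.8 and 354 CPM in GO1 and 80.9, 184 and 542 CPM in FGO. *Tbpl2*, the oocyte paralog of the TATA-binding protein, had 0, 6.77 and 99.8 CPM and 5.87, 70.2 and 197 CPM, whereas *Tbp* itself had means of 75.04 and 74.4 CPM. *Nobox*, a homeobox factor of follicle growth, had 419 and 1374 CPM, but 1053 and 1740.3 CPM in cells above 1000000 UMIs. *Sohlh2*, the partner of *Sohlh1*, was just past the limit at 5.86 and 11.9 CPM, and both *Nobox* and *Sohlh2* were within 2-fold in those cells. *Obox5* was the gene higher in GO1, while *Obox1* (178 and 107.5 CPM) and *Obox2* (723 and 375 CPM) were within 2-fold. Homeobox genes of the Obox family resemble each other, so reads may be split among them. The median log2 ratio of the 15 genes was -0.01 over all cells and changed sign with the setting, from -0.45 in cells of similar total to 0.42 by the median over cells.

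The subcortical maternal complex, a protein assembly under the oocyte membrane that embryos need, had a median log2 ratio of 0.15 over all cells, 0.50 in cells of similar total and 0.59 by the median over cells, beside 0.09, 0.05 and 0.35 for all genes tested. Of 10 genes for it and for related proteins, *Khdc3* (2187 and 4651 CPM) and *Padi6* (798 and 1895 CPM) were higher in FGO, and none was higher in GO1. Neither passed in all 4 settings, and both were within 2-fold in cells above 1000000 UMIs. *Nlrp5*, a core member, had 544, 1826 and 9176 CPM in GO1 and 1862, 3205 and 6678 CPM in FGO, a 1.16-fold difference of the means, but 1657 and 3828 CPM in cells of similar total. *Ooep* had 2196 and 2349 CPM and *Tle6* 890.4 and 1623 CPM. Among 8 measured genes of fertilization and egg activation, 3 were higher in FGO and 2 were higher in GO1. Beside *Cd9*, *Cd81*, its tetraspanin relative, had 6.27 and 34.8 CPM, and *Astl*, the zona protease ovastacin, 273 and 720.2 CPM. *Fetub*, which encodes fetuin-B, an inhibitor of ovastacin, went the other way at 60.6 and 11.6 CPM and passed in all 4 settings, as did *Cd9* and *Cd81*. *Pla2g4c*, a cytosolic phospholipase gene, was the other gene higher in GO1, at 329.8 and 160.2 CPM. In cells above 1000000 UMIs the log2 ratio of *Astl* was 0.65 and that of *Pla2g4c* -0.06. *Izumo1r*, the egg receptor for sperm Izumo1, had 128.5 and 106.2 CPM.

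Of 18 genes of mRNA storage and translation control, 2 were higher in FGO and 2 were higher in GO1, each in all 4 settings, and 77.8% were within 2-fold, beside 67.4% of all genes tested. *Ddx6*, an RNA helicase of storage granules, had 0, 29.7 and 141.6 CPM in GO1 and 33.6, 85.9 and 181 CPM in FGO, and *Patl2*, a translational repressor of oocytes, had means of 60.2 and 172 CPM. *Lsm14b*, an oocyte mRNA-binding protein, had 132.4 and 34.97 CPM and *Cpeb4* 34.8 and 10.2 CPM. In cells above 1000000 UMIs the log2 ratio of *Cpeb4* was -0.99, against -1.765 over all cells, and the other 3 were still past 2-fold. *Cpeb1*, the cytoplasmic polyadenylation factor, had 353 and 535 CPM and *Zar1*, a maternal mRNA-binding gene, 1184 and 2105 CPM. Of 17 genes of deadenylation and decay, 5 were higher in GO1, 2 were higher in FGO and 12 had a ratio below 1. The median log2 ratio was -0.60 and kept its sign in each setting run, from -0.69 to -0.53, beside 0.09 for all genes tested. The genes higher in GO1 were the CCR4-NOT catalytic subunits *Cnot6* (21.6 and 9.67 CPM), *Cnot6l* (242 and 78.5) and *Cnot7* (444 and 150.9) and the genes of the PAN deadenylase complex *Pan2* (36.1 and 17.6) and *Pan3* (171 and 61.2). Of these 5, *Cnot7* was past 2-fold in cells above 1000000 UMIs and the others were within it. Another catalytic subunit, *Cnot8*, had 110.9 and 164 CPM. *Btg4*, the adaptor that brings CCR4-NOT to maternal mRNA, had 1329.9 and 877 CPM. *Ythdf2*, a reader of methylated adenosine in mRNA, was higher in FGO in all 4 settings, at 82.7 and 225 CPM. The deadenylase *Parn* had 14.6 and 29.7 CPM but was lower in FGO in cells above 1000000 UMIs.

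Genes that run the meiotic divisions were past the limit in both directions. Of 22 genes of cyclin B-Cdk1 and metaphase II control, 4 were higher in FGO, 2 were higher in GO1 and 16 were past neither limit (72.7%, beside 67.4% of all genes tested). *Ccnb1*, the cyclin of meiotic resumption, had 169, 657 and 1958 CPM in GO1 and 112.8, 834 and 1614 CPM in FGO, with a log2 ratio of 0.27 over all cells and -0.38 in cells above 1000000 UMIs, *Cdk1* had means of 111.4 and 166 CPM and *Mos* 369 and 603 CPM. *Ccnb3*, a meiotic cyclin, had 0, 30.5 and 332 CPM in GO1 and 0, 3.08 and 37.7 CPM in FGO, and the phosphatase gene *Cdc25a* had 46.99 and 18.9 CPM. Both passed in all 4 settings. *Fzr1*, the activator of the anaphase-promoting complex that holds prophase arrest, had 50.8 and 155.1 CPM, *Ensa* 16.8 and 55.6, the kinase *Wee1* 11.2 and 23.2, and *Plk1* 111.2 and 285. None of these 4 passed in all settings, and in cells above 1000000 UMIs *Fzr1* and *Ensa* were within 2-fold and *Plk1* had 441 and 375 CPM. The median log2 ratio of the list was 0.24 over all cells, -0.13 in the summed UMIs and -0.23 in the deepest cells. Of 6 measured genes of the cyclic AMP pathway, which holds the arrest, *Prkar2a* (23.5 and 10.4 CPM) and *Akap1* (85.99 and 37.4 CPM) were higher in GO1, the latter within 2-fold in cells above 1000000 UMIs. Neither passed in all 4 settings, and *Prkar2a* had a log2 ratio of -0.79 in cells of similar total and -2.26 in the deepest cells. *Gpr3*, the receptor that keeps cyclic AMP high, had 8.89 and 6.58 CPM, under the minimum.

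Among 20 spindle and chromosome segregation genes, 3 were higher in GO1 and 1 was higher in FGO. The actin nucleators that move the spindle to the cortex were the clearest. *Fmn2* had 0, 125.4 and 702 CPM in GO1 and 0, 22.4 and 223 CPM in FGO, and its partner *Spire1* 0, 97.7 and 353 CPM and 0, 25.5 and 71.5 CPM. Both passed in all 4 settings and in the deepest cells, where *Spire1* had means of 166 and 37.6 CPM. The checkpoint kinase *Ttk* had 207 and 96.5 CPM over all cells and was within 2-fold in the deepest cells. *Smc1b*, the meiotic cohesin subunit, was the gene higher in FGO, at 84.4 and 229.9 CPM. Of 12 genes of meiotic prophase, *Syce1*, a part of the synaptonemal complex, was higher in FGO (10.1 and 47.1 CPM, within 2-fold in the deepest cells) and *Tex11*, a crossover gene, higher in GO1 (31.5 and 8.26 CPM). *Sycp3* had 56.98 and 60.9 CPM. Of 11 piRNA and transposon control genes, *Mov10l1* (11.7 and 38.99 CPM) and the germ cell helicase gene *Ddx4* (69.8 and 169.6) were higher in FGO and *Piwil1* (17.6 and 2.45) higher in GO1, each in all 4 settings. None of 5 Dicer and Argonaute genes was past the limit, and *Dicer1* had 1114 and 705 CPM, and 557 and 589 CPM in cells above 1000000 UMIs.

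Of 11 genes of DNA methylation, none was higher in FGO and 2 of low level were higher in GO1, *Tet1* (11.2 and 3.95 CPM) and *Zfp445* (17.2 and 6.80 CPM), a share of 18.2% beside 15.6% of all genes. Both were within 2-fold in cells above 1000000 UMIs. *Dnmt3a*, the de novo methyltransferase of oocytes, had 37.8, 197 and 1007 CPM in GO1 and 119.1, 249 and 481 CPM in FGO, and its log2 ratio was -0.34 over all cells but 0.35 in cells of similar total and 0.22 in cells above 1000000 UMIs. Its cofactor *Dnmt3l* had 57.1 and 30.04 CPM, and 192 and 56.8 CPM in cells above 1000000 UMIs. *Dnmt1* had 916 and 1357 CPM and *Dppa3*, also called Stella, 5985 and 7868 CPM. The Polycomb list, with genes that write or remove H3K27 methylation and H2A ubiquitination, had 5 of 14 measured members higher in GO1 and none higher in FGO, with a median log2 ratio of -0.59 that lay between -0.73 and -0.33 in the settings run. *Suz12*, a core subunit of PRC2, had 0, 137.6 and 1008 CPM in GO1 and 0, 55.4 and 157.7 CPM in FGO, *Bmi1* of PRC1 had means of 180.3 and 52.3 CPM, and the demethylase *Kdm6a* 89.9 and 23.5 CPM. *Jarid2* and *Rybp* were closer to the limit, at 115.8 and 53.7 CPM and at 137.6 and 63.4 CPM. *Suz12* and *Kdm6a* passed in all 4 settings, but of the 5 *Rybp* alone was past the rule in the deepest cells, where *Suz12* had 133.9 and 71.1 CPM. Of 15 genes of H3K4 and H3K36 methylation, *Kmt2d* (75.7 and 156.8 CPM) and *Kdm5a* (6.599 and 14.02) were higher in FGO and *Kdm1a* (21.01 and 10.2) higher in GO1. None of these 3 passed in all settings, *Kdm5a* alone was past the rule in the deepest cells, and *Setd2*, which methylates H3K36, had 59.3 and 36.5 CPM.

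Genes of contact with granulosa cells past the limit were all higher in GO1. Of 8 measured members, 5 were higher in GO1 and none higher in FGO, with a median log2 ratio of -1.27 over all cells, -1.28 in cells of similar total and -0.31 in the deepest cells. *Cdh1*, E-cadherin, had 0, 80.9 and 579.8 CPM in GO1 and 0, 17.7 and 55.1 CPM in FGO, and *Ctnnb1*, beta-catenin, means of 142.4 and 45.3 CPM. The others were N-cadherin *Cdh2* (30.2 and 13.9 CPM), dystroglycan *Dag1* (79.1 and 29.6) and the junction scaffold *Tjp1* (31.8 and 8.73). *Gja4*, connexin 37, which forms the gap junctions on the oocyte side, had 44.9, 328 and 845 CPM in GO1 and 37.6, 385 and 785 CPM in FGO, with overlapping cells and a log2 ratio of 0.20 over all cells and -0.25 in the deepest. *Cdh1* and *Tjp1* passed in all 4 settings, and only *Cdh1* of the 5 was also past 2-fold in the deepest cells, at 58.4 and 24.6 CPM. The steroid enzyme gene *Cyp19a1*, aromatase, from the granulosa list, was higher in GO1 at 16.95 and 1.34 CPM and passed in all 4 settings. The summed level of that list was higher in FGO, as given above with its *Serpine2* share, and the part of granulosa cell RNA in these results was not tested.

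Families of general cell function were counted in the same way. Of 78 cytoplasmic ribosomal protein genes, 3 were higher in FGO, among them *Rps23* (241 and 702 CPM), and 4 were higher in GO1, among them *Rps12* (302 and 74.6 CPM), and the list median of -0.11 turned positive in the summed UMIs (0.02), in the pairs of like total (0.04) and in the deepest cells (0.15). Of 77 mitochondrial ribosomal protein genes, 14 were higher in FGO (18.2%, near the share of all genes) and 2 were higher in GO1 (2.60%), and 59 had a ratio above 1 (76.6%), with a median log2 ratio of 0.46 that lay between 0.14 and 0.52 in the settings run. *Mrpl54* had 68.2 and 184 CPM and *Mrps31*, the strongest exception, 472 and 105.2 CPM. Of 78 respiratory chain genes, 56 had a ratio above 1 (71.8%) and 7 were higher in FGO, led by *Uqcrc1*, a core subunit of complex III, at 22.1 and 151.4 CPM. Their median was 0.31, and 0.23 in the deepest cells. Of 22 RNA polymerase subunits, 7 were higher in FGO and none in GO1, with *Polr3g* at 2.14 and 14.9 CPM. Of these 7, 1 passed in all 4 settings, and the list median was 0.14 over all cells and 0.04 in the deepest cells and turned to -0.001 in the summed UMIs. Of 30 Rab GTPases, 9 were higher in FGO, among them *Rab11b* of recycling endosomes (20.9 and 112.95 CPM), and 2 were higher in GO1, among them *Rab21* (124.2 and 27.96 CPM), and the median of 0.10 was -0.10 in the summed UMIs and -0.05 in the deepest cells. The other families had 3 of 35 genes past the limit in either direction in the proteasome, 7 of 56 translation factors, 12 of 57 splicing factors and hnRNPs, 5 of 18 nucleoporins, 3 of 18 kinesins and 8 of 30 ubiquitin-conjugating enzymes. In the same order, 91.4%, 87.5%, 78.95%, 72.2%, 83.3% and 73.3% were past neither limit, beside 67.4% of all genes tested. Of 391 Zfp zinc finger genes, 239 were under 10 CPM, and of the rest 29 were higher in FGO (19.1%) and 19 were higher in GO1 (12.5%), near the shares of all genes. Of 3 measured stress and immediate early genes, *Egr1* was higher in GO1 (10.7 and 4.52 CPM), but its log2 ratio of -1.24 turned to 0.13 in cells above 1000000 UMIs.

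**Figure D5:**
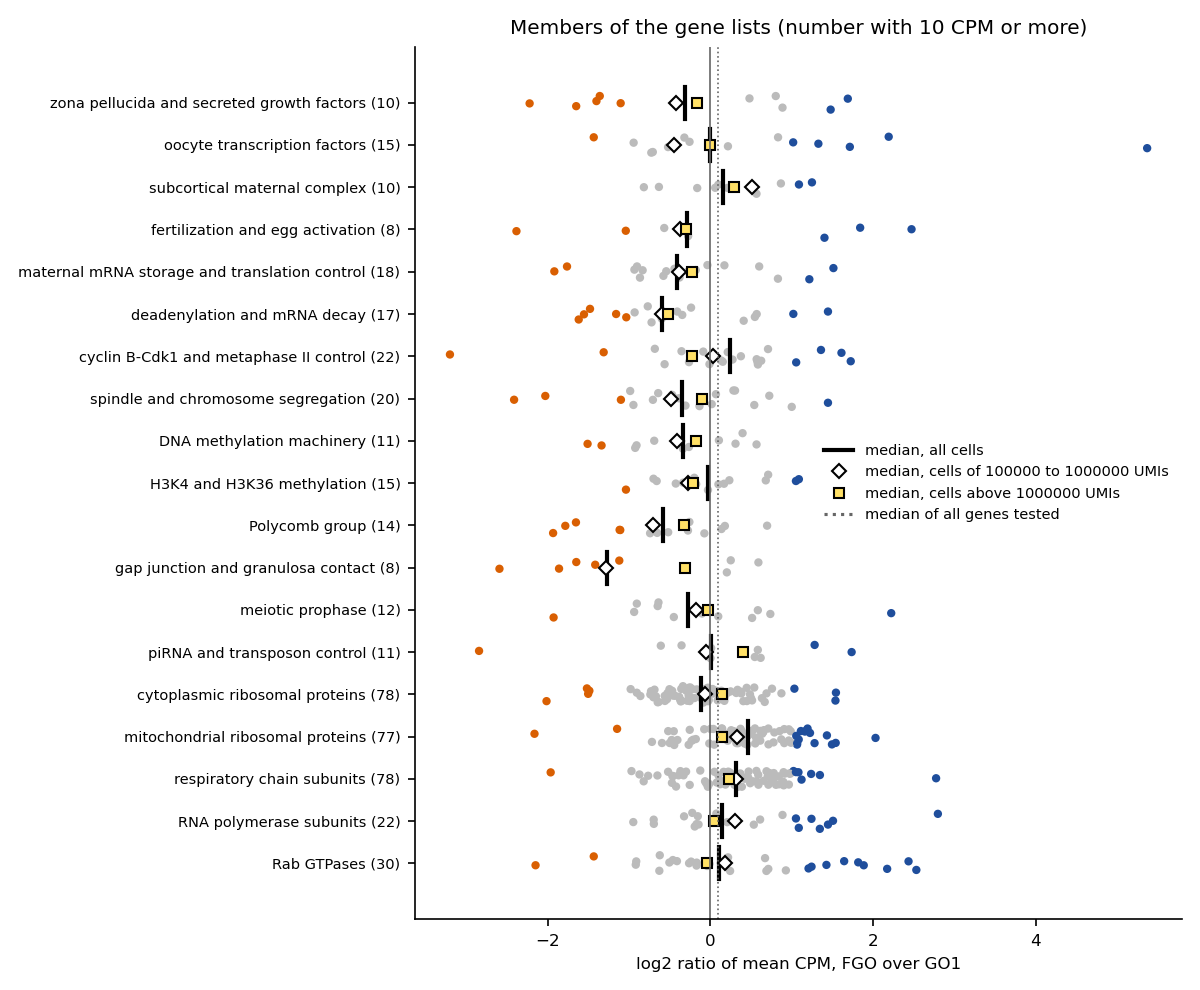
Each point is a gene with 10 CPM or more, placed by its log2 ratio of mean CPM, FGO over GO1, with a row for each gene list. Blue points are higher in FGO and orange points higher in GO1 by the 2-fold rule, grey points are past neither limit, black bars are list medians over all cells, diamonds those in cells of similar total and squares those in cells above 1000000 UMIs. The subcortical complex, mitochondrial ribosomal, respiratory chain and RNA polymerase lists lie right of 0 at all 3 medians. The medians of the cyclin B-Cdk1, piRNA, cytoplasmic ribosomal and Rab lists lie on both sides. All other lists lie left of 0 at all 3 medians, Polycomb, mRNA decay and contact genes among them.

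The oocytes of the stages between, which took no part in choosing the genes, were set beside them. Of the 1327 genes higher in FGO, 1213 had a higher mean in GO3 than in GO2 (91.4%), against 66.1% of all genes tested, and of the 1222 genes higher in GO1, 757 were lower in GO3 than in GO2 (61.95%), against 33.9%. *Cd9* had 265 CPM in GO2 and 613 in GO3, *Id3* 9.08 and 42.2, *Mei4* 93.3 and 27.5, and *Tex11* 44.01 and 11.8. *Eif2s2* was already at 1536 CPM in GO2, and *Etv1* was still at 69.3 CPM there and 27.8 CPM in GO3. *Sohlh1* had 0.558 and 2.20 CPM and *Maged1* 2.31 and 7.72 CPM, so these 2 were low until FGO. In the non-growing oocytes many of the same genes were high. Of the 1327 genes higher in FGO, 91.3% had a higher mean in NGO than in GO2, against 56.2% of all genes tested, and of the 1222 genes higher in GO1, 83.6% had a lower mean in NGO than in GO2, against 43.8%. NGO cells came from younger mice, so growth and age cannot be told apart in this step. *Sohlh1* had 392 CPM in NGO and *Mei4* 2.66. By a rule chosen after the values were seen, 9 genes had at least 100 CPM in NGO and under 10 CPM in GO1, GO2 and GO3, and their FGO level was 4.49% (*Krt79*) to 29.8% (*Bbx*) of that in NGO. The rule used the levels in NGO, GO1, GO2 and GO3 and not those in FGO, where the summed level of the 9 genes had a lowest, median and highest value of 61.2, 248 and 1090 CPM. All 96 cell barcodes were used in at least 2 of the 4 libraries, and whether reads crossed between libraries was not tested.

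Gene structure, which the rule did not use, differed between both sets. Over genes with a single position in the GENCODE annotation of NCBIM37, the median span from start to end of the gene was 13778 bases for the genes higher in FGO, 47484 for those higher in GO1 and 24702 for all genes tested. Of 874 genes under 5000 bases, 28.6% were higher in FGO and 8.92% were higher in GO1, and of 999 genes of 100000 bases or more, 8.41% and 27.3%. The median log2 ratio of these classes was 0.53 and -0.39 over all cells, 0.48 and -0.42 in cells of similar total and 0.19 and -0.28 in the deepest cells. The longest coding transcript had a median of 2178 bases and 53.2% G and C in the genes higher in FGO, 4078 bases and 46.6% in those higher in GO1, and 2859 bases and 49.05% in all genes tested. *Mei4*, *Trps1* and *Csmd3*, higher in GO1, are long genes and *Id3* and *Ran*, higher in FGO, are short ones. Other named genes went the opposite way. *Bbx* (chr16:50191957-50432503), higher in FGO, is long, and *Pnma5* (chrX:70279327-70282442), higher in GO1, is short. The part of transcript length in the counting of these genes was not tested.

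Genes with few and with many CG in the promoter were both more often higher in GO1 than in FGO. The promoter was taken as 300 bases of NCBIM37, from 250 before to 50 after the start of the gene, and CG was counted on the strand of the gene, which gives the same count on the other strand. Under 5 CG were found in 5.87% of promoters of the genes higher in FGO, 15.96% of those higher in GO1, 8.84% of all genes tested and 28.4% of the 21483 promoters read. Of 674 tested genes with under 5 CG, 27.4% were higher in GO1 against 11.4% higher in FGO, and of 1687 genes with at least 30 CG, 20.3% and 12.4%. In between, at 15 to 19 CG, 10.6% were higher in GO1 and 22.2% higher in FGO. Among the 12 genes named for the largest ratio in each direction, 3 of 11 with a promoter had under 5 CG when higher in GO1 and 1 of 12 when higher in FGO. Promoters of both kinds are shown 5′ to 3′ on the strand of the gene, with CG in capitals. *Ugt2b38* (1 CG, chr5:87853179-87853478, minus strand) and *Rrh* (4 CG, chr3:129525374-129525673, minus strand) were higher in GO1. *Eif4ebp1* (18 CG, chr8:28370549-28370848, plus strand) and *Gipc1* (32 CG, chr8:86176327-86176626, plus strand) were higher in FGO. They were chosen for their CG counts from the genes with the largest ratios and stand for no rule, since *Trps1*, higher in GO1, had 41 CG and *Myot*, higher in FGO, had 1.
Ugt2b38: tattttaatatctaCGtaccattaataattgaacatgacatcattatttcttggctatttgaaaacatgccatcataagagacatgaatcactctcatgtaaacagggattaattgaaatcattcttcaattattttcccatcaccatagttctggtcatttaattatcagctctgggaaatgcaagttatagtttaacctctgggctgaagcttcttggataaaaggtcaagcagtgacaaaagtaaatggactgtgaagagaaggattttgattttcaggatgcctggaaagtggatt
Rrh: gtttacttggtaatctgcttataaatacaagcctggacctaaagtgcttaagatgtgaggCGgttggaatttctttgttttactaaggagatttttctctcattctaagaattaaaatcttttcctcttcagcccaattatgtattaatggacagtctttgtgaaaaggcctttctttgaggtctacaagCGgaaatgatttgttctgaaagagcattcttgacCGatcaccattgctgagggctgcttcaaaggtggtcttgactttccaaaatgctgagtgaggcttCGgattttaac
Eif4ebp1: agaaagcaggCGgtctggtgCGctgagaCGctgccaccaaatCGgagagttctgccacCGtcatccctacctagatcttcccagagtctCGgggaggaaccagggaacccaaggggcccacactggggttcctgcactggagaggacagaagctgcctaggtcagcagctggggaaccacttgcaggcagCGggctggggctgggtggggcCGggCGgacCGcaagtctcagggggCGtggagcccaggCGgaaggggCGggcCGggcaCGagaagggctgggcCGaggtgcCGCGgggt
Gipc1: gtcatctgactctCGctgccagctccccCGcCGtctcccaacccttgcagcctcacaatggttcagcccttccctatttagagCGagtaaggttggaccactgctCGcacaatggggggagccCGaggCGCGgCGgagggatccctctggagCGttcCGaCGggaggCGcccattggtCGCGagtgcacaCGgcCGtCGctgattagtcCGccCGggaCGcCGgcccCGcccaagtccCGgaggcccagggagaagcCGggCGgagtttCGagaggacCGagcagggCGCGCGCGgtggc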

How the data were processed

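Single-cell RNA-seq of hand-picked mouse oocytes was analysed from the UMI counts deposited by the authors, 23201 genes by 223 cells. Per the study's methods, reads were sorted by cell barcode, aligned to the mm9 transcriptome with TopHat and counted after removal of duplicate UMIs, and cells with over 3000 genes and 20000 to 4000000 transcripts and without a high share of spike-in RNA were kept. All 223 cells, of 296 sequenced, lay within the limits on genes and transcripts, and the spike-in share was not checked here. Strand and the treatment of shared reads are not given in the sources used here, so overlapping and antisense genes cannot be told apart. Doublets were not called, as the cells were picked singly.

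Counts were divided by the total of each cell and multiplied by 1000000 (CPM). The ratio of mean CPM over cells was the main measure, and genes with 10 CPM or more in the higher stage and 2-fold or more between stages were counted. As alternatives, medians, means without the outer 10% of cells at each end, stage sums, 27 pairs of cells of like total, cells of 100000 to 1000000 UMIs, cells thinned to 20000 UMIs, other limits, and scaling factors of edgeR 4.0.16 (TMM) and DESeq2 1.42.0 were used. These tools gave scaling factors only. Intervals (95%) are exact for counting error, with a binomial split of the UMIs of both stages. The genes named are the 12 with the largest ratio each way, by the smallest of 4 settings, among genes past the rule in all 4, the 6 with the largest gain and loss in mean CPM, and list members. Members, lists and rules were chosen with earlier results of these data known. No column of values was left unused, and no test between stages was made, since a stage was 1 pooled sample. Gene positions and promoters were read from NCBIM37 (mm9) with GENCODE vM1, for 21483 genes. Scripts ran in R 4.3.3 and in Python 3.11.15 (pandas 2.3.3 and numpy 2.4.6 for tables, scipy 1.17.1 for intervals and correlations, plots by matplotlib 3.10.9). The 2-fold rule, with 4 ways of averaging cells, was checked for finding known changes in simulated cells. Levels in the simulated cells did not change with depth, and the other steps were not checked in this way.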

Additional observations from a re-analysis of the deposited data

How the results depend on the processing

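Counts of genes higher in FGO and in GO1 (1327 and 1222) were 628 and 711 in stage sums, 2037 and 711 by the median over cells, 5329 and 4052 with no minimum, 537 and 521 with at least 50 CPM, and 2433 and 2065 at 1.5-fold. They were 528 and 583 in cells above 1000000 UMIs, an alternative chosen after seeing the data. They stayed within 1.5 times under pairs of like total, similar totals, thinning, removal of the 10 deepest cells of each stage, the mean without the extreme cells, TMM and DESeq2 factors. The median of genes detected per cell at 20000 UMIs differed by 383.5 between the stages, and by 3702 with no thinning. The share of genes higher in FGO that were also higher in GO3 than in GO2 was 96.3% by sums, 88.7% in similar totals and 74.8% after thinning, beside 63.1%, 63.5% and 59.3% of all genes tested in these settings. That of genes higher in GO1 and lower in GO3 was 75.1%, 63.3% and 57.9%, beside 36.9%, 36.5% and 40.55%. Cells nearer to their own stage were 92.2% of GO1 and 98.2% of FGO, and 100% and 100% in similar totals. Among named genes past the rule, the log2 ratio changed sign in cells above 1000000 UMIs for *Parn* (-0.13), *Plk1* (-0.23), *Kmt2d* (-0.18) and *Egr1* (0.13), and by the median over cells for *Kdm1a* (0.044), and the cause was not tested. Of 990 values of these genes over all settings, 846 moved by less than the spread between cells, 5 changed sign and the rest moved more. No paired analysis was possible because each stage was 1 pooled sample and nothing ties the cell numbers that the stages share to an animal or library. Within a stage, cells of neighbouring number were alike for some genes, as for *Mei4* in GO1. *Ran* had 961.67 to 1434.8 CPM in FGO_sc38 to FGO_sc44, against a median of 731 CPM over FGO cells. Whether this spread follows library or animal was not tested. Depth limits GO1 most, since 24 of its 51 cells held under 100000 UMIs.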
